A study of Mus musculus with 7 samples.

Results

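Basophils and mast cells are rare granulated cells of allergic responses, and 9 genes that mark them and their progenitors were followed here: Ms4a2, Hdc, Cpa3, Fcer1a, Mcpt8, Prss34, Tpsb2, Il1rl1 and Gzmb. They were chosen by name, and all 9 were present among the 23930 genes measured. The study sequenced targeted RNA libraries (1 short amplicon per gene) from progenitor cells of mouse bone marrow isolated by fluorescence-activated sorting. One group was common myeloid progenitors (CMPs) of pMT-10 mice, which overexpress IL-10 from a transgene driven by a zinc-inducible metallothionein promoter (n = 2 libraries). The control group was CMPs of BL/6 (C57BL/6) mice, which carry no such transgene (n = 2). The other groups, both from pMT-10 mice, were lineage-, SCA-1+, c-KIT+ (LSK) cells that were CD150+ and CD48+ (n = 2) and haematopoietic stem cells (HSC, n = 1). Every mouse, the controls included, had zinc in its drinking water for 15 days. Ages of the mice, the gates by which CMPs and HSC were sorted and the number of animals behind a library are not stated in the labels. P-values therefore measure the spread between these libraries, which may be technical, and the metallothionein promoter is not restricted to 1 cell type.

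Basophils and mast cells descend from myeloid progenitors through intermediates that carry the high-affinity IgE receptor, and they store histamine and serine proteases in granules. The receptor consists of the IgE-binding alpha chain FCER1A, the beta chain MS4A2 and a dimer of the gamma chain FCER1G, and its cross-linking by antigen releases the granules. Carboxypeptidase A3 and histidine decarboxylase are made early in both lineages, MCPT8 and PRSS34 are proteases of mouse basophils, TPSB2 is a tryptase of mature mast cells, and IL1RL1 (ST2) is the receptor for IL-33. In mouse bone marrow GATA2, C/EBPα and IL-3 signalling through the common beta chain are known to guide this branch of haematopoiesis.

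Library totals ran from 7372430 counts (HSC) to 13854314 counts (LSK CD150+CD48+ replicate 2). Levels are given as CPM, counts scaled by the TMM-adjusted library total to a common sum, and where no count was seen the level could still reach that of 3 counts, here 0.216 to 0.397 CPM (the floor). Differences were tested with edgeR's quasi-likelihood test over 11429 genes, and a gene is called at a Benjamini-Hochberg adjusted p under 0.05. The spread within the pair was larger in pMT-10 than in BL/6 CMPs (SD over genes of the log2 difference 0.639 against 0.260). One sequencing chip carried the LSK and pMT-10 CMP libraries and another chip those of HSC and BL/6 CMPs. The deposited names give these chips different dates and server numbers, so chip stands here for the whole run. Strain and chip, with its date, cannot be told apart in the CMPs. Among the 7 sort markers, Ly6a was highest in the LSK and HSC libraries, and Cd48 was higher in the LSK libraries than in HSC. Between pMT-10 and BL/6 CMPs, 3 of the 7 were called higher and 2 lower by edgeR. Over all genes tested these shares were 14.3% and 13.7%. Ly6a, the gene of SCA-1, was at 325 and 248.7 CPM in the LSK libraries and 331 in HSC, but at 19.4 and 28 in pMT-10 CMPs against 0.0923 and 2.02 in BL/6 CMPs. Cd48 was at 63.6 and 40.5 CPM in the LSK libraries and 6.48 in HSC, and at 44.3 and 79.5 in pMT-10 CMPs against 20.4 and 17.9 in BL/6 CMPs. Fcgr3, also a sort marker, averaged 19.02 CPM in pMT-10 and 3.496 in BL/6 CMPs (log2 fold change 2.44, adjusted p = 0.00368 by edgeR). Kit, the gene of c-KIT, averaged 99.45 CPM in the LSK libraries, 117.7 in pMT-10 CMPs and 288.2 in BL/6 CMPs. Whether the CMP groups held the same mix of cells was not tested.

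The 250 bases before the annotated start of each gene (RefSeq, GRCm38.p6, the same build as mm10) were read for 8 of the 9 genes. They are shown because the genes differ in whether this window holds GATAA, the core bound by GATA factors such as GATA2. The 5 windows below are those of Ms4a2, Cpa3 and Il1rl1, which hold it, and of Hdc and Mcpt8, which do not. Capitals mark GATAA or its reverse complement TTATC, and each window runs 5′ to 3′ towards the gene. The windows end at the RefSeq start, which can differ from the gene ends printed with the members: the Hdc window lies inside the printed gene, and the Mcpt8 window overlaps its end.
Ms4a2, chr19:11623720-11623969, minus strand: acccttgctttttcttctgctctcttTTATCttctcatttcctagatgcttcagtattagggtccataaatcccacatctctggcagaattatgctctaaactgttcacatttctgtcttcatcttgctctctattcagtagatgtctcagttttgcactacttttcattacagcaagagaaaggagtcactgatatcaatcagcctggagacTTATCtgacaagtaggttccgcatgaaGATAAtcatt
Cpa3, chr3:20242182-20242431, minus strand: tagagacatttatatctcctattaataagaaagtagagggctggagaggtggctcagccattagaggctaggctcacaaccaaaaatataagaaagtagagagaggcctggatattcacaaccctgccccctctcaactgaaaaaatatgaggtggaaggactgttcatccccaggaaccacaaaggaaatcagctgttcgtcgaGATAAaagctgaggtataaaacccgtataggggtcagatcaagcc
Il1rl1, chr1:40429320-40429569, plus strand: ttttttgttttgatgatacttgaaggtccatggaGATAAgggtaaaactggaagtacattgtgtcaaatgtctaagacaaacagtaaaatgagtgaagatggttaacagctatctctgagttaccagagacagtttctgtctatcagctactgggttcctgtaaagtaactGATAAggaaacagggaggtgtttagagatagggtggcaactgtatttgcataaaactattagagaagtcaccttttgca
Hdc, chr2:126618679-126618928, minus strand: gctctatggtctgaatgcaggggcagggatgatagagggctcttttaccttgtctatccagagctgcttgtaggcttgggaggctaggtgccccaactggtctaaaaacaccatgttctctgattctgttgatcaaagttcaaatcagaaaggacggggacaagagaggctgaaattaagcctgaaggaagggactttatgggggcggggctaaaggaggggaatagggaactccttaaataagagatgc
Mcpt8, chr14:56085198-56085447, minus strand: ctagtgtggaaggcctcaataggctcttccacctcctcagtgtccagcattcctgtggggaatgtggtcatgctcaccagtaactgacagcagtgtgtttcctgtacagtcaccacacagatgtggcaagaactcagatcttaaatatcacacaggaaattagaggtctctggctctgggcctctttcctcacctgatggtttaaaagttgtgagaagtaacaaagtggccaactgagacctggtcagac
GATAA was found in 6 of 9 windows, which belong to 5 of the 8 genes (Ms4a2, Cpa3, Fcer1a, Prss34 and Il1rl1, the last with 2 annotated starts). Over 32851 windows of the same length before mouse genes, 22.6% held it on either strand. Ms4a2 had 3 matches, at 224, 37 and 10 bases before the start, Cpa3 had 1 at 45 bases, and the upstream start of Il1rl1 had 2 at 216 and 79 bases. Hdc, Mcpt8 and Gzmb had none in the window. The same windows were searched on both strands for the STAT5 core TTCNNNGAA (none of the 8 genes, 7.02% of all windows), the C/EBP core TTNNGCAA (Fcer1a and Il1rl1, 9.56%) and the ETS core AGGAAG (Hdc, 29.5%). A match describes letters and not a bound site.

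In CMPs, 5 of the 9 genes were higher in pMT-10 than in BL/6 mice: Ms4a2, Hdc, Cpa3, Mcpt8 and Gzmb. They rose by 4.00-fold (Cpa3) to 13.5-fold (Gzmb). None was called lower by edgeR (0 also at an unadjusted p under 0.05, and by DESeq2), Il1rl1 and Fcer1a were tested and not called, and Prss34 and Tpsb2 had too few counts to be tested. Over all genes tested, 14.3% were called higher and 28% were called in either direction, so the 5 members stand beside a broad difference between these CMP groups. In sorted bulk samples, more cells of a type and more RNA per cell cannot be told apart.

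**Figure D1:**
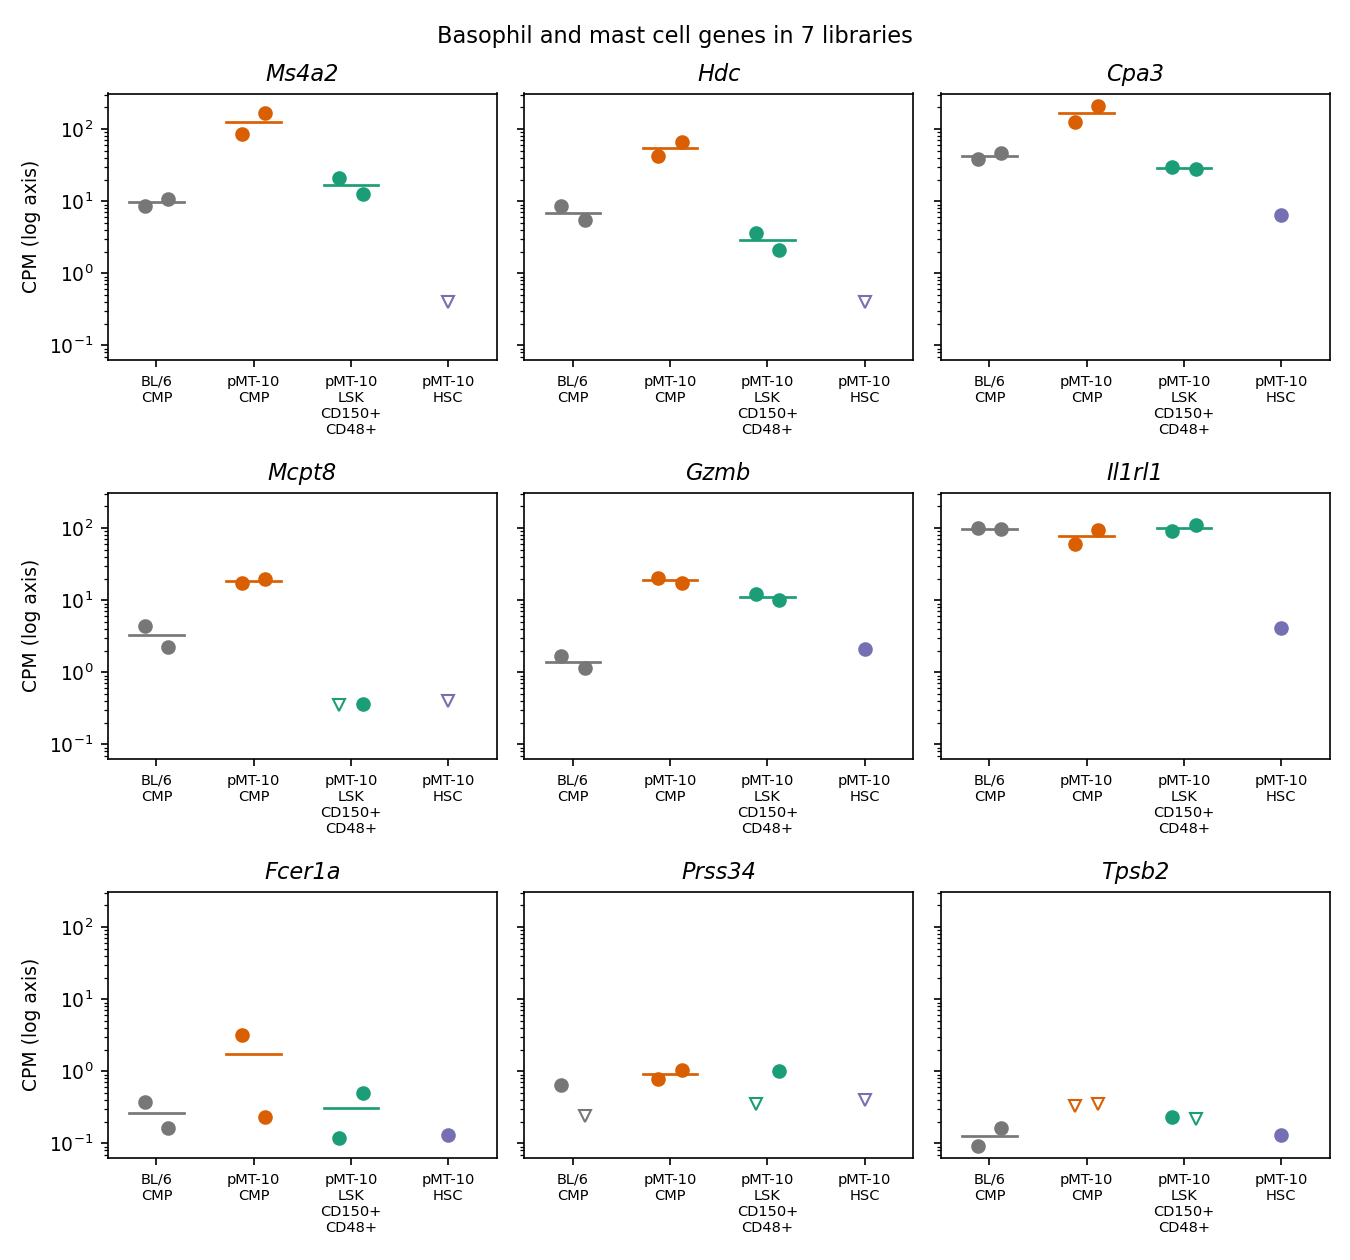
Level of each of the 9 genes (CPM, log axis) in the 7 libraries, by group. Filled circles are libraries, lines are means of a pair, and open triangles are counts of 0 drawn at the floor of 3 counts. Ms4a2, Hdc, Cpa3, Mcpt8 and Gzmb are highest in the pMT-10 CMP libraries, Il1rl1 is at 61.2 to 109 CPM in every library except HSC, and the bottom row lies near the floor.

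Ms4a2 (chr19:11615523-11623719, minus strand), the beta chain that amplifies signals of the IgE receptor, had 85.8 and 168 CPM in pMT-10 CMPs (778 and 1451 counts). BL/6 CMPs had 8.49 and 10.8 CPM (92 and 134 counts), the LSK libraries 20.8 and 12.7 CPM, and the HSC library 0 counts. The order of the levels was pMT-10 CMP, LSK CD150+CD48+, BL/6 CMP and HSC, with no overlap between libraries of neighbouring groups. Such separation was common with 1 or 2 libraries per group. In LSK cells against pMT-10 CMPs, 27.8% of all genes tested were higher without overlap and 27.9% lower. These shares were 35.4% and 36.2% in LSK cells against BL/6 CMPs, and 44.9% and 45.7% in HSC against BL/6 CMPs. The log2 fold change of pMT-10 over BL/6 CMPs was 3.71 ± 0.38 (SE, adjusted p = 0.000933 by edgeR), from 9.66 ± 1.65 to 127 ± 58.2 CPM (SD, n = 2). LSK cells and BL/6 CMPs, neighbours in that order, differed by a log2 value of 0.78 ± 0.37, which was not called (adjusted p = 0.173 by edgeR).

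Fcer1a (chr1:173221284-173227214, minus strand), the IgE-binding alpha chain, was almost without counts. It had 29 and 2 counts in pMT-10 CMPs, 4 and 2 in BL/6 CMPs, 1 and 7 in the LSK libraries and 1 in HSC. A single pMT-10 CMP library stood out, at 3.20 CPM, and the other 6 libraries were at 0.117 to 0.504 CPM. Fcer1a passed the filter through that library, and its log2 difference between CMP groups, 2.67 ± 1.22, was not called (adjusted p = 0.129 by edgeR). The replicates thus went opposite ways in the receptor's chains, since pMT-10 CMP replicate 2 had 1.96 times the Ms4a2 level of replicate 1 but 0.0724 times its Fcer1a level. Fcer1g, the gamma chain that other Fc receptors also use, had 50.4 and 72.4 CPM in pMT-10 CMPs. Its values in BL/6 CMPs were 32.9 and 39.3 CPM.

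Hdc (chr2:126593667-126619299, minus strand), the enzyme that makes histamine, had 42.9 and 65.3 CPM in pMT-10 CMPs and 8.49 and 5.41 CPM in BL/6 CMPs. It had 3.62 and 2.09 CPM in the LSK libraries (31 and 29 counts) and 0 counts in HSC. The 4 groups did not overlap, which was common among all genes tested. In pMT-10 against BL/6 CMPs, 33.2% of them were higher without overlap and 33.7% lower. In HSC against LSK cells these shares were 45.4% and 41.6%. The rise in pMT-10 CMPs was 7.79-fold, a log2 fold change of 2.96 ± 0.36 (adjusted p = 0.00171 by edgeR).

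Cpa3 (chr3:20215620-20242181, minus strand), the carboxypeptidase of mast cell granules that basophil progenitors also make, had 127 and 212 CPM in pMT-10 CMPs (1152 and 1833 counts). It had 38.7 and 46.2 CPM in BL/6 CMPs, 29.7 and 27.8 CPM in the LSK libraries and 6.35 CPM in HSC (48 counts, exact Poisson 95% interval 4.68 to 8.42 CPM). Cpa3, Il1rl1 and Gzmb were the members with 10 or more counts in every library. The rise of Cpa3 in pMT-10 CMPs was 2.0 ± 0.26 on the log2 scale (adjusted p = 0.00191 by edgeR).

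Mcpt8 (chr14:56082166-56085273, minus strand), a protease used as a marker of mouse basophils, had 17.4 and 19.9 CPM in pMT-10 CMPs (158 and 172 counts) and 4.34 and 2.26 CPM in BL/6 CMPs (47 and 28 counts). The LSK libraries had 0 and 5 counts and HSC had 0, so these groups overlapped at the floor. The log2 fold change between CMP groups was 2.50 ± 0.48 (adjusted p = 0.00647 by edgeR). The call was lost without BL/6 CMP replicate 2 (log2 value 2.11, adjusted p = 0.0730).

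Prss34 (chr17:25298394-25300165, plus strand), the other basophil protease, had 7 and 9 counts in pMT-10 CMPs, 7 and 0 in BL/6 CMPs, 0 and 14 in the LSK libraries and 0 in HSC. Tpsb2 (chr17:25366305-25369098, plus strand) had at most 2 counts in any library and 0 in both pMT-10 CMP libraries. At these counts neither gene was tested, and no difference was detectable at this depth. Further genes of mature mast cells were at or near 0: Mcpt1, Mcpt2, Mcpt4 and Mrgprb2 had no counts in any library, and Cma1, Tpsab1, Tpsg1 and Hpgds did not exceed 0.661 CPM. The granzyme gene Gzmc also had no counts. By defining markers, the CMP libraries thus held genes shared by both lineages and the basophil protease Mcpt8. The other basophil protease, Prss34, had at most 9 counts there, and the tryptases and chymases of mature mast cells were at 0 or near the floor.

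Gzmb (chr14:56258838-56262260, minus strand) encodes granzyme B, a protease of cytotoxic lymphocytes that mouse mast cells and basophils can also make. It had 20.4 and 17.3 CPM in pMT-10 CMPs (185 and 149 counts), 12.04 and 9.999 CPM in the LSK libraries, 2.12 CPM in HSC and 1.66 and 1.13 CPM in BL/6 CMPs (18 and 14 counts). The difference between CMP groups was a log2 fold change of 3.75 ± 0.35 (adjusted p = 0.00063 by edgeR), close to that of Ms4a2. HSC and BL/6 CMPs, last in the order, did not differ beyond their error (0.61 ± 0.49 on the log2 scale, adjusted p = 0.413 by edgeR). Markers of T and NK cells, which use granzyme B most, summed to 0.331 and 0.348 CPM in pMT-10 CMPs and to 0.646 and 1.45 CPM in BL/6 CMPs over 11 measured genes. In the pMT-10 CMP libraries those sums are 3 counts each, at the floor, and the part of such cells in the level of Gzmb was not tested. In HSC they summed to 4.89 CPM, all of it Klrb1c.

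Gzmb and Ms4a2 were the members whose levels separated by chip, with every pMT-10 CMP and LSK library above every BL/6 CMP and HSC library. Gzmb ran from 9.999 to 20.4 CPM on the one chip and from 1.13 to 2.12 CPM on the other, and Ms4a2 from 12.7 to 168 CPM and from 0 to 10.8 CPM. Of all genes tested, 10.2% were higher in all 4 libraries of that chip and 11.5% lower. Hdc, Cpa3, Mcpt8, Il1rl1, Fcer1a, Prss34 and Tpsb2 overlapped between the chips.

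Il1rl1 (chr1:40429570-40465415, plus strand), the IL-33 receptor, went its own way. It had 99.9 and 97.5 CPM in BL/6 CMPs, 61.2 and 92.9 CPM in pMT-10 CMPs, 91.4 and 109 CPM in the LSK libraries and 4.10 CPM in HSC (31 counts, exact Poisson 95% interval 2.79 to 5.82 CPM). The CMP groups were at 98.7 ± 1.69 and 77.1 ± 22.4 CPM (SD, n = 2), and the log2 difference of -0.36 ± 0.23 was not called (adjusted p = 0.268 by edgeR). It rested on pMT-10 CMP replicate 2: without that library, which leaves 1 in the group, the difference was -0.69 and called. Fcer1a was then at 3.56, from replicate 1 alone, the library through which it passed the filter.

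Counts of 1 gene relative to another in the same library also depend on how well each amplicon works, so such ratios are compared between libraries only. Ms4a2 counts were 0.220 and 0.234 times the Cpa3 counts in BL/6 CMPs, 0.675 and 0.792 times in pMT-10 CMPs and 0.701 and 0.455 times in the LSK libraries. Cpa3 counts were 4.55 and 8.54 times the Hdc counts in BL/6 CMPs, 2.96 and 3.25 times in pMT-10 CMPs and 8.19 and 13.3 times in the LSK libraries. Cpa3 counts were 0.387 and 0.474 times the Il1rl1 counts in BL/6 CMPs and 2.08 and 2.29 times in pMT-10 CMPs. In both pMT-10 CMP libraries, then, Cpa3 counts were lower relative to Ms4a2 and Hdc, and higher relative to Il1rl1, than in either BL/6 CMP library. Between the libraries of that pair, replicate 2 was 1.96 times replicate 1 for Ms4a2, 1.67 for Cpa3, 1.52 for Hdc and Il1rl1, 1.14 for Mcpt8 and 0.846 for Gzmb.

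From pMT-10 CMPs to LSK CD150+CD48+ cells of the same strain and chip, 4 of the 7 members tested were lower: Ms4a2, Hdc, Cpa3 and Mcpt8. None was called higher by edgeR, also at an unadjusted p under 0.05, or by DESeq2. Of all genes tested, 5.92% were called lower and 11.8% in either direction. Hdc fell by 4.28 ± 0.40 on the log2 scale (adjusted p = 0.000847), and Mcpt8, at 0 and 5 counts in the LSK libraries, fell by 6.35 ± 0.67 (adjusted p = 0.00125, both edgeR). Its size rests on few counts: with 1 library left out the fitted value ran from -10.47, without LSK replicate 2, to -5.65, and was called throughout. Ms4a2 fell by 2.93 ± 0.37 (adjusted p = 0.00277) and Cpa3 by 2.56 ± 0.27 (adjusted p = 0.00125, both edgeR). Gzmb (-0.78 ± 0.30, adjusted p = 0.115 by edgeR) and Il1rl1 (0.38 ± 0.23, adjusted p = 0.294 by edgeR) were not called. The calls of Ms4a2 and Cpa3 were lost without either LSK library (log2 -3.32 and -2.61 for Ms4a2, -2.61 and -2.52 for Cpa3). Far fewer of all genes were called in those settings as well. Without pMT-10 CMP replicate 2, which leaves 1 library in that group, Gzmb (-0.90) and Il1rl1 (0.71) were called, and more of all genes were called too. Fcer1a was then at -3.16, set by the library through which it passed the filter.

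LSK CD150+CD48+ cells and BL/6 CMPs differ in strain, population and chip, and their comparison was added after the data had been seen. Gzmb was higher in the LSK cells (2.97 ± 0.35, adjusted p = 0.00127) and Mcpt8 lower (-3.85 ± 0.72, adjusted p = 0.00936, both edgeR). Hdc was called lower at the edge of the threshold (-1.32 ± 0.39, adjusted p = 0.0499 by edgeR), and not with RLE size factors (adjusted p = 0.0518) or without any 1 of the 4 libraries compared (0.0983 to 0.35). These 3 calls stood against 16.6% of all genes called in either direction (8.11% higher and 8.5% lower). Mcpt8 lost its call without BL/6 CMP replicate 1 (adjusted p = 0.0683) or LSK replicate 1 (adjusted p = 0.0951), and its fitted value ran from -7.97 to -3.15 with 1 library left out. Il1rl1 (0.02 ± 0.23) was not called, nor were Ms4a2 and Cpa3 (-0.56 ± 0.26), which were called once either pMT-10 CMP library was left out of the fit. All comparisons share groups with one another, so they are not independent.

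**Figure D2:**
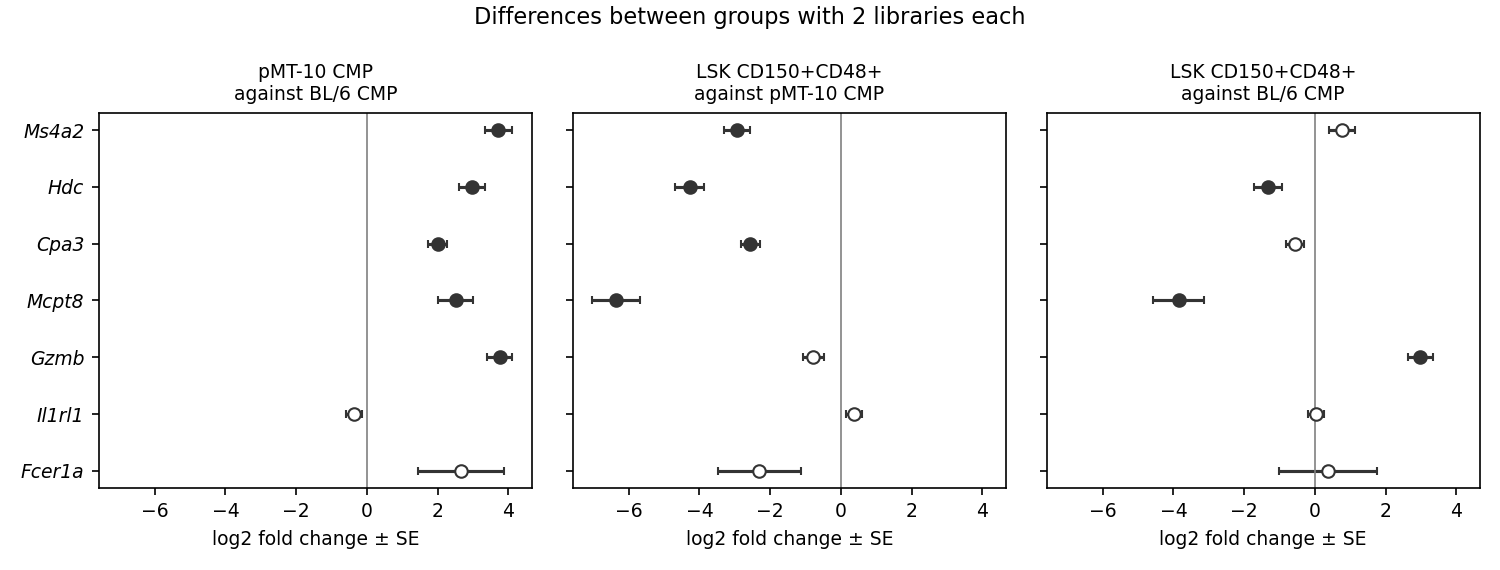
Log2 fold change with its SE for the 7 genes tested, in the comparisons of groups with 2 libraries each. Filled circles are called at an adjusted p under 0.05 and open circles are not. Ms4a2, Hdc, Cpa3, Mcpt8 and Gzmb lie at 2.0 to 3.75 in pMT-10 against BL/6 CMPs, and Gzmb alone of them is not called in LSK cells against pMT-10 CMPs.

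The HSC library held the lowest levels of Ms4a2, Hdc, Cpa3 and Il1rl1, and as a single library it was assumed in the fit to vary like the others. It had 0 counts of Ms4a2, Hdc and Mcpt8, and the fold bounds set them at the floor of 3 counts, 0.397 CPM in that library (counting error only). Against pMT-10 CMPs, 6 of the 7 members tested were lower, beside 11.7% of all genes called lower and 25.5% in either direction. HSC and pMT-10 CMP libraries were run on different chips, so chip and population cannot be told apart in that comparison. Ms4a2 and Gzmb, the members that separated by chip, are among the 6. Ms4a2 was at least 320-fold lower, Hdc at least 136-fold and Mcpt8 at least 47.1-fold, each against that floor (adjusted p 0.000356, 0.00041 and 0.00195 by edgeR). Cpa3 fell by 4.74 ± 0.42, Il1rl1 by 4.23 ± 0.38 and Gzmb by 3.15 ± 0.46 on the log2 scale (adjusted p = 0.000356, 0.000364 and 0.00239 by edgeR).

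Against BL/6 CMPs, 5 members were lower in HSC, beside 8.5% of all genes called lower and 20.3% in either direction. These groups shared a chip, but strain and population cannot be told apart between them. Ms4a2 was at least 24.3-fold, Hdc at least 17.5-fold and Mcpt8 at least 8.32-fold lower, against the same floor (adjusted p = 0.00221, 0.00212 and 0.0136 by edgeR). Cpa3 fell by 2.74 ± 0.39 and Il1rl1 by 4.58 ± 0.39 on the log2 scale (adjusted p = 0.00158 and 0.000123 by edgeR). Against LSK CD150+CD48+ cells of the same strain, 5 members were lower in HSC, beside 8.15% of all genes called lower and 18.8% in either direction. Ms4a2 was at least 42.2-fold and Hdc at least 7.19-fold lower, against the same floor (adjusted p = 0.00211 and 0.012 by edgeR). Il1rl1 fell by 4.61 ± 0.39, Gzmb by 2.37 ± 0.46 and Cpa3 by 2.18 ± 0.38 on the log2 scale (adjusted p = 0.000426, 0.00984 and 0.00681 by edgeR). The calls of Cpa3 and Gzmb were lost without either LSK library (adjusted p 0.0556 to 0.0782) and that of Hdc without LSK replicate 1 (adjusted p = 0.0761). HSC and LSK libraries were also run on different chips, so chip and population cannot be told apart there either. Other basophil and mast cell genes were not low throughout in HSC. Over 10 further genes of granules and mediator synthesis, the median log2 difference of HSC from BL/6 CMPs was 1.13. It was 0.46 from pMT-10 CMPs and 0.70 from LSK cells. Over all genes these medians were -0.01, 0.016 and 0.027. Ctsg of that list was lower in HSC than in either CMP group.

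Genes near the members were read as a further description. Within 200000 bases of the 9 genes lay 73 measured genes, of which 29 were tested. Between pMT-10 and BL/6 CMPs 7 of these were higher and 4 lower, beside 14.3% of all genes called higher and 13.7% lower. Ms4a3 lies 5777 bases from Ms4a2 and encodes a membrane protein of granulocyte-monocyte progenitors. It had 21.1 and 34.5 CPM in pMT-10 CMPs, 3.32 and 2.42 in BL/6 CMPs, 3.16 and 1.58 in the LSK libraries and 3.31 in HSC. It rose by 3.27 ± 0.42 on the log2 scale in pMT-10 CMPs (adjusted p = 0.00183 by edgeR), and HSC and BL/6 CMPs, which Ms4a2 set apart, were not called different for it (0.21 ± 0.55, adjusted p = 0.823 by edgeR). Ms4a6c, 133331 bases from Ms4a2, rose by 2.37 ± 0.30 (adjusted p = 0.00183 by edgeR).

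Mcpt8 and Gzmb lie 173565 bases apart in the granzyme and mast cell protease cluster of chromosome 14, where most measured genes between them had no counts. Ctsg, cathepsin G of neutrophils and mast cells, lies 14608 bases from Mcpt8. It had 265 and 462 CPM in pMT-10 CMPs, 104 and 92.9 in BL/6 CMPs, 10.05 and 8.13 in the LSK libraries and 11.4 in HSC, a rise of 1.88 ± 0.27 in pMT-10 CMPs (adjusted p = 0.00246 by edgeR, log2 scale). In LSK cells against pMT-10 CMPs it fell by 5.33 ± 0.32 (adjusted p = 0.000162 by edgeR). Il18r1, which starts 137 bases beyond the end of Il1rl1 and encodes the IL-18 receptor, had 7 and 9 counts in BL/6 CMPs, 1 and 8 in pMT-10 CMPs, 5 and 12 in the LSK libraries and 29 in HSC. Il1r1, the IL-1 receptor 112313 bases from Il1rl1, was lower in pMT-10 CMPs by -1.69 ± 0.36 on the log2 scale (adjusted p = 0.0101 by edgeR), a call lost without either BL/6 CMP library (adjusted p 0.0675 and 0.122).

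**Figure D3:**
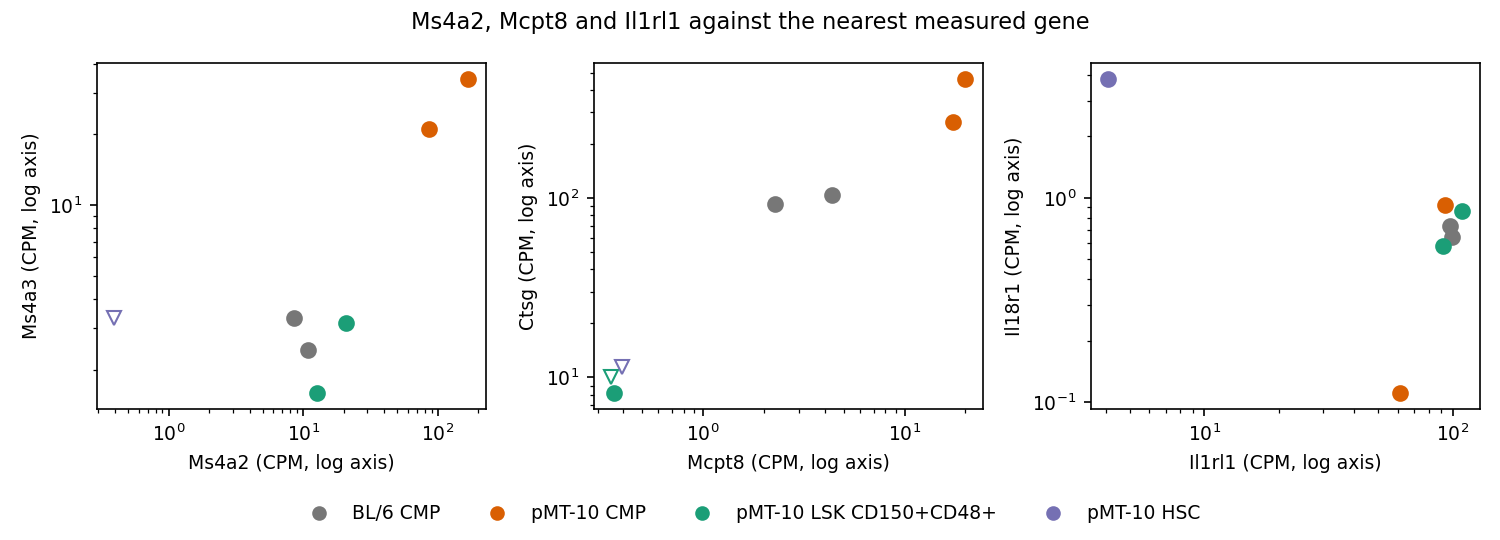
Level of Ms4a2, Mcpt8 and Il1rl1 (CPM, log axes) against that of the nearest measured gene, 1 point per library, coloured by group. Open triangles have 0 counts of the member and are drawn at the floor of 3 counts. The pMT-10 CMP libraries lie highest for Ms4a2 with Ms4a3 and for Mcpt8 with Ctsg, while Il18r1 is highest in the HSC library, where Il1rl1 is lowest.

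Of the signalling genes behind the IgE receptor, 6 of 15 tested were higher and 3 lower in pMT-10 than in BL/6 CMPs. In this comparison, 14.3% of all genes tested were called higher and 13.7% lower, and the counts of each list below stand beside those shares. The list's median was 0.43 on the log2 scale, against 0.0128 over all genes. Lat2, an adaptor of mast cells, rose by 1.38 ± 0.22 and Pik3cd, a PI3 kinase subunit, by 1.32 ± 0.21 (both adjusted p = 0.00319), while Lcp2, the adaptor SLP-76, fell by 1.48 ± 0.19 (adjusted p = 0.00186, all edgeR). Behind the IL-33 receptor, 2 of 9 tested genes were higher and 2 lower. Sigirr rose by 1.43 ± 0.25 (adjusted p = 0.00441) and Tab2 fell by 1.33 ± 0.19 (adjusted p = 0.00248, both edgeR). The call of Sigirr was lost without BL/6 CMP replicate 2. Il33 itself had no counts in any library. These counts rested on both BL/6 CMP libraries: without replicate 1 or 2 of that group, fewer genes of the IgE and IL-33 receptor lists were called. The number of all genes called fell as well in those settings.

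Of the other granule proteases and enzymes of mediator synthesis, 10 of 19 measured genes were tested, and 5 were higher and 1 lower in pMT-10 CMPs. Alox5, the lipoxygenase of leukotriene synthesis, had 20.3 and 37.0 CPM there and 5.63 and 5.01 in BL/6 CMPs. The log2 fold change was 2.43 ± 0.37 (adjusted p = 0.00297 by edgeR). Alox5ap, its activating protein, was higher by 1.63 ± 0.32 (adjusted p = 0.00671 by edgeR), a call lost without either BL/6 CMP library (highest adjusted p = 0.0744). Without pMT-10 CMP replicate 2 it was still called, at 0.96. Without BL/6 CMP replicate 1 or 2, fewer genes of this list were called, and fewer of all genes. Of the cytokines of basophils and mast cells, 5 of 9 were tested, and Osm (1.76 ± 0.25) and Csf1 (2.17 ± 0.31) were higher (both adjusted p = 0.00246 by edgeR). Il4, the cytokine basophils are best known for, had 0.441 and 0.579 CPM in pMT-10 CMPs, 0.185 and 0.0808 in BL/6 CMPs and 3.84 in HSC.

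Among lineage factors and growth factor receptors, 5 of 16 were higher and 4 lower in pMT-10 CMPs. The largest differences were in Csf2rb, the beta chain shared by the receptors for IL-3, IL-5 and GM-CSF, and Csf2rb2, the beta chain of the mouse IL-3 receptor. Csf2rb2 had 120.2 and 125 CPM in pMT-10 CMPs against 3.69 and 4.44 in BL/6 CMPs (log2 fold change 4.91 ± 0.25, adjusted p = 2.53e-05 by edgeR). Csf2rb had 87.7 and 102 CPM against 8.49 and 9.29 (3.42 ± 0.23, adjusted p = 0.00012 by edgeR). These genes are near-identical copies, so how the reads were divided between them is uncertain. Both had higher levels in each LSK library than in either pMT-10 CMP library (235 and 176 CPM for Csf2rb2, 194 and 146 for Csf2rb), as had 27.8% of all genes tested. Hdc and Mcpt8 were low in the LSK libraries. Crlf2, the receptor for TSLP, rose by 2.01 ± 0.30 (adjusted p = 0.00283 by edgeR). Gata2 went the other way, with 316 and 176 CPM in pMT-10 CMPs. It had 763 and 732 CPM in BL/6 CMPs, which gave a log2 difference of -1.60 ± 0.26 (adjusted p = 0.00348 by edgeR). Kit, the stem cell factor receptor that mast cells keep, fell by 1.29 ± 0.25 (adjusted p = 0.00623 by edgeR), a call lost without BL/6 CMP replicate 1 (adjusted p = 0.0561). Fewer of the 16, and fewer of all genes, were called without BL/6 CMP replicate 1 or 2. Of other surface genes of basophils and mast cells, 8 of 13 measured were tested, and Cd69 (2.0 ± 0.51) and Cd200r3 (4.49 ± 1.28) were higher and Mrgprb1 lower (-2.73 ± 0.84). None of these 3 calls held in every setting with 1 library left out (highest adjusted p 0.144, 0.213 and 0.232 by edgeR). Cd200r3, a receptor of basophils and mast cells, had 1.32 and 1.16 CPM in pMT-10 CMPs against 0.0923 and 0 in BL/6 CMPs.

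In LSK cells against pMT-10 CMPs, 5.92% of all genes tested were called higher and 5.92% lower. The granule and mediator list had 1 gene higher and 3 lower of 10, the lower ones being Ctsg, Alox5 (-1.70 ± 0.36, adjusted p = 0.0190) and the vesicular amine transporter Slc18a2 (-0.88 ± 0.20, adjusted p = 0.0268, both edgeR). The IgE receptor list had 2 higher and 2 lower of 15, with Fcer1g at -1.72 ± 0.25 (adjusted p = 0.00423 by edgeR), a call lost without either LSK library. In those settings fewer genes of the list, and fewer of all genes, were called. The IL-33 receptor list had none of 9 called, with 2 at an unadjusted p under 0.05 in edgeR and 0 called by DESeq2. Leaving out pMT-10 CMP replicate 1 or 2 gave calls in this list, and more calls among all genes. Of the lineage factors and growth factor receptors, 5 of 16 were higher and 1 lower. The lower one was Cebpa, the gene of C/EBPα (-2.63 ± 0.30, adjusted p = 0.00167 by edgeR), a call not kept in every setting with 1 library left out. It had 48.4 and 80.5 CPM in pMT-10 CMPs, 39.6 and 38.7 in BL/6 CMPs, 12.2 and 8.85 in the LSK libraries and 2.38 in HSC. Gata2, at 1448 and 1511 CPM in the LSK libraries, was higher by 2.59 ± 0.27 (adjusted p = 0.00118), and Itgb7, an integrin of mast cell progenitors, by 2.36 ± 0.21 (adjusted p = 0.000601, both edgeR). Itgb7 had 115 and 109.6 CPM in the LSK libraries and 16.4 to 22.8 CPM in the other 5.

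**Figure D4:**
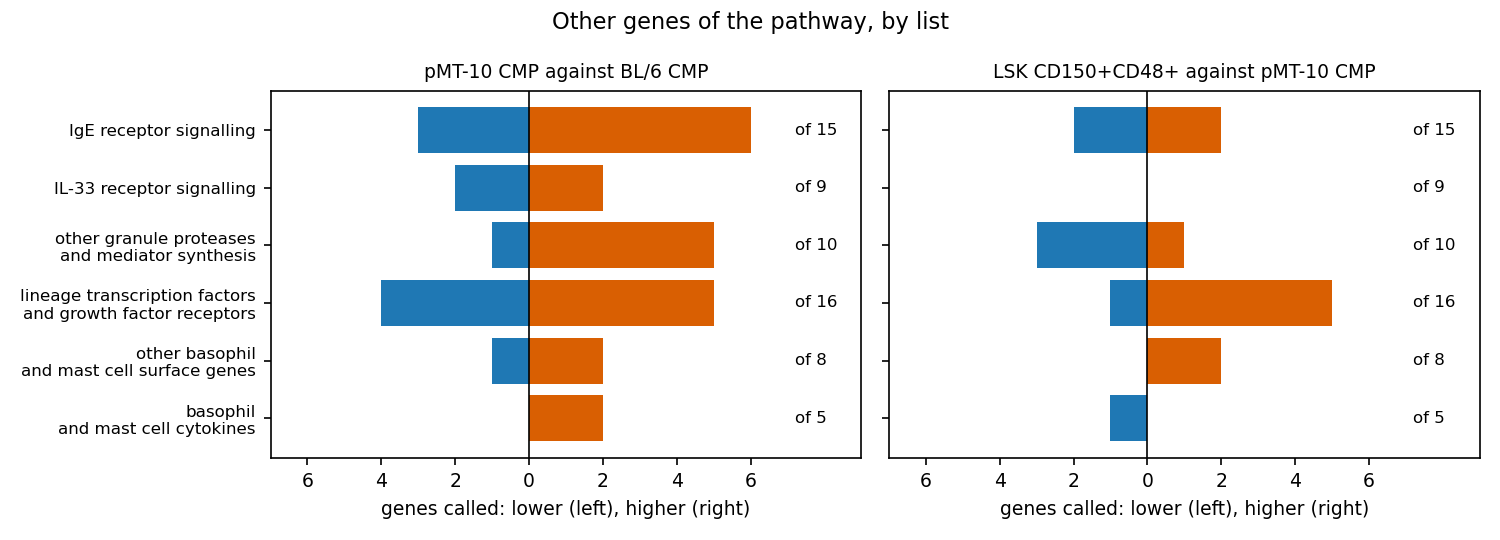
Number of genes called higher (right) and lower (left) in each list of basophil and mast cell pathway genes, with the number tested at the right, for pMT-10 against BL/6 CMPs and for LSK CD150+CD48+ cells against pMT-10 CMPs. In pMT-10 CMPs the IgE receptor list has 6 higher and 3 lower of 15.

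Markers of other cells were read in the same libraries. Over 10 measured genes, neutrophil granule markers summed to 513 and 816 CPM in pMT-10 CMPs, 243 and 208 in BL/6 CMPs, 54.9 and 54.3 in the LSK libraries and 126 in HSC. Of the 9 tested, 4 were higher in pMT-10 CMPs, among them Elane (2.70 ± 0.39, adjusted p = 0.00249 by edgeR) and the genes Ctsg and Ms4a3 given above. Ctsg and Prtn3 (189 and 282 CPM in pMT-10 CMPs, 104 and 90.9 in BL/6 CMPs) made up most of the sum. The list's median was -1.0 on the log2 scale, and other genes of the list lay lower without being called: Mpo, myeloperoxidase, had 8.38 and 6.02 CPM in pMT-10 CMPs and 12.1 and 16.8 in BL/6 CMPs, and Ngp 0.110 and 0.348 against 4.98 and 1.53. In LSK cells against pMT-10 CMPs, 5 of the 9 were lower and none higher. Eosinophil markers, 7 measured, summed to 39.8 and 46.5 CPM in pMT-10 CMPs and 22.5 and 17.7 in BL/6 CMPs, most of it Siglecf, while Epx, the eosinophil peroxidase, did not exceed 0.369 CPM. Plasmacytoid dendritic cell markers, 7 measured, summed to 426 and 389 CPM in pMT-10 CMPs and 186 and 169 in BL/6 CMPs, most of it Bst2 and Irf7, which other cells also express. Tcf4, a factor these cells need, had 31.4 and 10.5 CPM in pMT-10 CMPs and 42.5 in each BL/6 CMP library, Siglech and Ccr9 were at 0 in every library, and Ly6d did not exceed 0.441 CPM. Markers of type 2 innate lymphoid cells, which also carry Il1rl1, summed to 9.26 and 11.6 CPM in pMT-10 CMPs and 4.89 and 3.96 in BL/6 CMPs over 8 genes. B cell markers, 7 measured, summed to 12.02 and 20.2 CPM against 17.6 and 15.8. Between the CMP groups no B cell and no T or NK cell marker was called by edgeR or DESeq2 (1 of each list was tested by edgeR, 0 at an unadjusted p under 0.05). The innate lymphoid and eosinophil lists had 1 call each. Both calls were lost when BL/6 CMP replicate 1 was left out, where fewer of all genes were called too. The part of these cells in the differences of Ms4a2, Hdc, Cpa3, Mcpt8 and Gzmb was not tested.

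Over the 7 libraries, the 6 genes whose levels were most like the mean profile of the 8 members with counts of 10 or more were Ikbip (Pearson r = 0.99), Tubgcp6, Col4a3bp, LOC105245783, Mars (0.98 each) and Chd8 (0.97), among 9615 candidates. With a pseudocount of 0.25 Ikbip still ranked 1, but Mars ranked 12 and Chd8 10. The libraries share their groups and chips, so these values describe likeness over 7 points. Ikbip itself ran only from 12.4 to 21.4 CPM, a far narrower range than that of Ms4a2.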

How the data were processed

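Values were raw read counts per amplicon as deposited by the authors, 1 table per sequencing chip, for 7 libraries prepared with the Ion AmpliSeq Transcriptome Mouse kit from total RNA, per the labels' protocols. Per the submitters' processing notes mm10 was the genome build. Which aligner and counting program were run is not given in the sources used here. Each gene is read at 1 place, so a splice form or sequence variant there changes its count, and the counts carry no molecular identifiers, so that several reads may be copies of 1 molecule and every interval or floor covers counting error alone. Columns were matched to samples by table and barcode.

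The test used edgeR 4.0.16 under R 4.3.3: filterByExpr (minimum count 10, which kept 11429 of 23930 genes), TMM factors, 1 fit of 4 group means over 7 libraries (3 residual degrees of freedom) and the robust quasi-likelihood F-test, adjusted over all genes tested and called under 0.05. The fit was tested on simulated counts. SEs were derived from the F statistic. No chip term could be fitted, since no group was run on both chips, and no within-chip comparison of the strains exists. Alternatives were RLE size factors, no composition factor, DESeq2 1.42.0, no filter, a minimum count of 50, only the groups compared, a replicate block and each replicate left out.

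The 9 genes and 13 further lists (143 genes, 136 of them in the tables) were chosen with earlier results of these data known. Named genes were the 9, the 6 genes most like the 9 over the libraries (Pearson r on log2(CPM + 1)) and some of the sort markers. From each list and comparison, up to 3 genes with the smallest p among those called could be named, and not all of them are. List genes or neighbours singled out after their values were seen are also named, among them Fcer1g, Il4, Il33, Gata2 in CMPs, Klrb1c, Epx, Siglech, Ngp, Tcf4, Ly6d, Ccr9, Il18r1, Il1r1 and Ms4a6c. Gene positions are from GENCODE M21 and promoter windows from RefSeq GRCm38.p6.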

Additional observations from a re-analysis of the deposited data

How the results depend on the processing

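Of 501 values of the tested members under the alternatives, 464 kept their direction and side of the threshold, 20 lost the call, 13 gained it and 4 reversed. None reversed under another scaling, tool or filter. Leaving out 1 library at a time, the number of members called ran from 4 to 7 in pMT-10 against BL/6 CMPs, 2 to 7 in LSK CD150+CD48+ cells against pMT-10 CMPs, 5 to 5 in HSC against BL/6 CMPs, 6 to 7 in HSC against pMT-10 CMPs, 2 to 5 in HSC against LSK cells and 1 to 5 in LSK cells against BL/6 CMPs. With only the groups compared in the fit, the last count was 5. The counts of 7 include Fcer1a, which then rested on pMT-10 CMP replicate 1 alone. The single HSC library was never left out, so the ranges of its comparisons do not show how far they rest on it. The reversed results all came from leaving out a library, and their log2 values spanned 0. In LSK cells against BL/6 CMPs they ran from -1.08 (without LSK replicate 2; -0.11 without BL/6 replicate 2) to 1.01 for Fcer1a, and without LSK replicate 2 reversed Il1rl1 (-0.11 to 0.15), Ms4a3 (-0.85 to 0.14) and Il18r1 (-0.23 to 0.32). In HSC against LSK cells Fcer1a ran from -1.84 to 0.16 (without LSK replicate 2). In HSC against BL/6 CMPs, Ms4a3 (-0.057 to 0.40) and Il1r1 (-0.27 to 0.075) reversed without BL/6 replicate 2. Il18r1 reversed without pMT-10 CMP replicate 1, from -2.52 to 0.42 in pMT-10 against BL/6 CMPs and from -0.31 to 2.63 in LSK cells against pMT-10 CMPs. With all libraries none of these differences was called by edgeR, and the cause was not tested. Mcpt8 in HSC against LSK cells gave no value without LSK replicate 2, where both were at 0.

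The number of all genes called depended on the libraries far more. It was 3204 in pMT-10 against BL/6 CMPs (582 to 5268 with 1 library left out), 1354 in LSK cells against pMT-10 CMPs (44 to 4274, 2237 with no filter, 595 with only the groups compared), 2320 in HSC against BL/6 CMPs (815 to 4828, 6127 with only the groups compared), 2912 in HSC against pMT-10 CMPs (1733 to 5222, 1042), 2147 in HSC against LSK cells (266 to 4811, 3987) and 1899 in LSK cells against BL/6 CMPs (140 to 4575, 4553). Of 78 counts over the lists, 62 moved by more than 1.5 times when a library was left out and 34 under another alternative. Labels do not say that equal replicate numbers mark shared animals, and deviations of equal-numbered libraries did not go together (r = -0.041 between the CMP groups). With the replicate block, 5 members were called in pMT-10 against BL/6 CMPs, 4 in LSK cells against pMT-10 CMPs and 2 in LSK cells against BL/6 CMPs (2979, 1181 and 1664 of all genes). The HSC library carries no number and has no block. Depth limits Fcer1a, Prss34 and Tpsb2.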
